A study of Mus musculus with 75 samples.

Results

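The interferon response genes of mouse gastrocnemius muscle, the large calf muscle, were followed as a group of 42 genes among the 13856 genes of the expression table. They were chosen by gene symbol as known members of the response, and all 42 were in the table. Earlier results of these data were known when they were chosen. By role they fall into 9 regulators and sensors of the type I interferon response (Stat2, Irf9, Irf7, Usp18, Ifih1, Eif2ak2, Zbp1, Trim25 and Sting1), 16 type I effectors (Ifit1, Ifit2, Ifit3, Isg15, Rsad2, Ifi27, Ifi35, Bst2, Ifitm2, Ifitm3, Xaf1, Parp9, Parp14, Dtx3l, Samd9l and Herc6), 11 interferon-gamma GTPases (Gbp2, Gbp3, Gbp4, Gbp5, Gbp6, Gbp7, Gbp9, Igtp, Irgm1, Irgm2 and Iigp1), 4 genes of antigen transport (Tap1, Tap2, Tapbp and B2m) and 2 interferon regulatory factors that serve both pathways (Irf1 and Irf8). None of the 42 had an estimated count of 0 in any of the 73 libraries. The lowest were those of Zbp1, with as little as 1 estimated count, and of Ifit3, Gbp6 and Gbp5.

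Balb/c mice of both sexes carried C26 cells, a mouse colon carcinoma line used to study cancer wasting, injected on both sides, or were injected with PBS in place of cells. From day 12 the tumour-bearing mice received 5-fluorouracil (an antimetabolite of thymidylate synthesis), paclitaxel (a microtubule stabiliser) or cisplatin (a DNA cross-linker) at 75% of the MTD over 2 cycles, or the saline vehicle, and the PBS mice also received saline. Muscle was taken at day 25. The libraries analysed came from 7 female PBS, 7 female C26, 8 female 5-fluorouracil, 7 female paclitaxel, 6 female cisplatin, 8 male PBS, 8 male C26, 8 male 5-fluorouracil, 6 male paclitaxel and 8 male cisplatin mice. Below, PBS and C26 name the 2 groups given saline, and each drug group also carried C26 cells. No group received a drug without C26 cells.

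Interferons are cytokines that cells release on infection or tissue damage. Type I interferons signal through a complex that holds STAT2 and IRF9 and binds the interferon-stimulated response element, while interferon-gamma acts at gamma-activated sites and through IRF1. The guanylate-binding proteins and immunity-related GTPases, which attack membranes around intracellular pathogens, are among the genes that interferon-gamma induces most strongly, and in skeletal muscle the type I genes are known as the signature of dermatomyositis.

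The promoters of 6 members are shown because 5 of them (all but Irgm1) carry main differences below, while Irgm1 was the GTPase with a change above 0 in C26 males, and because each holds at least 1 copy of the response element. Each run is the 250 bases before the annotated RNA start, read 5′ to 3′ on the gene's own strand from the RefSeq promoter table of build GRCm38.p6. Gbp3 (chr3:142559794-142560043, plus strand), Gbp5 (chr3:142496684-142496933, plus strand) and Gbp7 (chr3:142530086-142530335, plus strand) lie in the guanylate-binding protein cluster. Irgm1 (chr11:48871421-48871670) and Ifitm2 (chr7:140955962-140956211) lie on the minus strand, and Ifit3 (chr19:34583279-34583528) on the plus strand. Capitals mark each match, on either strand, to the interferon-stimulated response element core GAAANNGAAA or to the gamma-activated site TTCNNNGAA, where N is any base.
Gbp3: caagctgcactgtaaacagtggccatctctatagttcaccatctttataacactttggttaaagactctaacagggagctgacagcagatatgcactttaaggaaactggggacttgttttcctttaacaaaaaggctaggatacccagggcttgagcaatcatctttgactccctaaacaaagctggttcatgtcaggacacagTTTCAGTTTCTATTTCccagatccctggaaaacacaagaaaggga
Gbp5: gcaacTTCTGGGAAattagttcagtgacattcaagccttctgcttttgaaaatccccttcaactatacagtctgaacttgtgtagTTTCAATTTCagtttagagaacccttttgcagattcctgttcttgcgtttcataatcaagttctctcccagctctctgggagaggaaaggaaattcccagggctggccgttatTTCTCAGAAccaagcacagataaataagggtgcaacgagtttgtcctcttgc
Gbp7: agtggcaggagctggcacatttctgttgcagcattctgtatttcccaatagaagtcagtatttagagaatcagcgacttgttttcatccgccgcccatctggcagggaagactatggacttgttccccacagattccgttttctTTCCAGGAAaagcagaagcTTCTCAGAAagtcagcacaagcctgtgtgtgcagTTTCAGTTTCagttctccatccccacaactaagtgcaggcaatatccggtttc
Irgm1: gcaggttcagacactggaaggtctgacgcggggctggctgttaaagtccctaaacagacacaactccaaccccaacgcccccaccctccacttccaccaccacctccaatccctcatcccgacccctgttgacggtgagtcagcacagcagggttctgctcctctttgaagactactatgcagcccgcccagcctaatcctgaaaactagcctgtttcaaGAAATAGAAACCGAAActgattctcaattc
Ifit3: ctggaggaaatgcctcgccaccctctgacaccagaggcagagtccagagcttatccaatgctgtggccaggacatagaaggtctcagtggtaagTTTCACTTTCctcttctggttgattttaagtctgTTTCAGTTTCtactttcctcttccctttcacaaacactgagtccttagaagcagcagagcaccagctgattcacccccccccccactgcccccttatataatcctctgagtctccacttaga
Ifitm2: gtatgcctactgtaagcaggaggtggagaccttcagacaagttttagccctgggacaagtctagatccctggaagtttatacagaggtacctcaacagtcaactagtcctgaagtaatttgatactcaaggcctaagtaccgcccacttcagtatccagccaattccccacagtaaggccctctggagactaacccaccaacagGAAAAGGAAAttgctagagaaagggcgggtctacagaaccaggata

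In Gbp3 the capitals hold 2 overlapping response element matches that begin 45 and 39 bases before the start. Irgm1 likewise had overlapping matches at 30 and 24 bases. Gbp5 had its response element match at 165 bases and gamma-activated site matches at 245 and 52 bases, and Gbp7 had them at 53, and at 106 and 87 bases. Ifit3 had response element matches at 156 and 122 bases, and Ifitm2 had 1 at 46 bases. In the 300-base windows of the table (250 bases before the start and 50 after), the response element letters were in 18 of the 31 members that had a window, or 58.1%, against 3.99% of the 27025 genes in the table. They were in 7 of 7 GTPases with a window, 7 of 13 type I effectors, 3 of 6 type I regulators, 1 of 3 antigen transport genes and 0 of 2 for Irf1 and Irf8. The gamma-activated site letters were in 11 of 31 members (35.5%) against 9.55% of all genes, with 4 of 7 GTPases, 4 of 13 effectors, 1 of 6 regulators, 0 of 3 antigen transport genes, and 2 of 2 for Irf1 and Irf8. The 2 patterns can share bases. A match says only that the letters are there.

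The libraries held an estimated 11.4 to 40.5 M counts each (median 22.5 M). The 6 muscle fibre markers (Acta1, Myh4, Myh1, Ckm, Tnnt3 and Myl1) summed to between 87100 and 270000 CPM across libraries, so the tissue label matched them. In 19 of 73 libraries the values rose with the GC content of the transcript by a slope above 0.1, and these libraries were unevenly spread. They made up 4 of 6 male paclitaxel and 4 of 8 male 5-fluorouracil libraries, 0 of 8 male C26 and 0 of 6 female cisplatin libraries, 2 in each of the male PBS, male cisplatin, female PBS, female 5-fluorouracil and female paclitaxel groups, and 1 in female C26. Results of the male paclitaxel group are therefore given with and without them.

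Values are log2 of estimated counts over the authors' scaled library size (log2 CPM), so a difference of 1 is a doubling, and they are not per length, so genes are compared only with themselves. A gene was called at an adjusted p under 0.05 in limma with Benjamini-Hochberg adjustment over all 13856 genes, and the p-values measure only the spread between these samples. Where a range is given for a group, it runs from its lowest to its highest library.

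**Figure D1:**
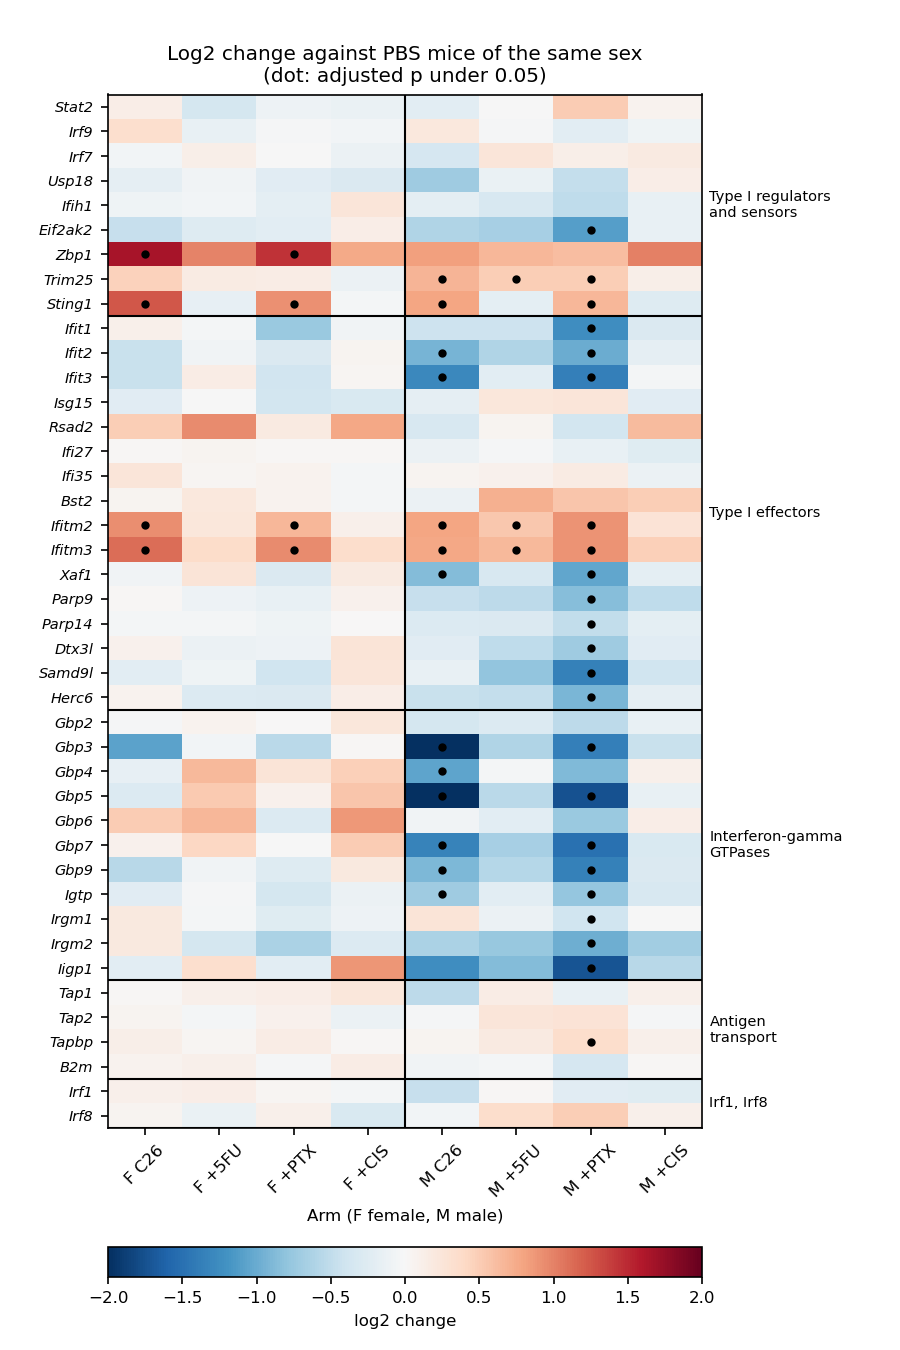
Log2 change of each of the 42 interferon response genes (vertical axis, grouped by role) against PBS mice of the same sex, in C26 mice and in the 3 drug groups (horizontal axis, F female, M male). Colour gives the log2 change, saturating at 2 in either direction, and a dot marks an adjusted p under 0.05. The male C26 column shows 6 GTPases called lower and Ifitm2, Ifitm3, Sting1 and Trim25 called higher.

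Male tumour-bearing mice had less RNA of the interferon-gamma GTPases than PBS males. Of the 11 GTPases, 6 fell (Gbp3, Gbp4, Gbp5, Gbp7, Gbp9 and Igtp) and 0 rose, and the median log2 change of the 11 was -0.91 beside 0.00 over all genes tested. The type I genes moved in both directions, and of antigen transport and Irf1 and Irf8 none was called. Over all 42 members 4 rose and 9 fell, where 13.1% of all genes were called higher and 13.0% lower. In whole muscle, fewer cells of a type and less RNA per cell cannot be told apart.

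Gbp3, a guanylate-binding protein, ran from 0.89 to 2.82 (median 1.35) in male PBS libraries and from -1.73 to 0.69 (median -0.66) in male C26 libraries. The C26 libraries were all lower than the PBS libraries. Gbp3 was 4.3-fold lower (log2 change -2.10 ± 0.39 SE, adjusted p = 2.08e-05), and it was called in 16 of 16 fits that left out a library. Gbp5, which promotes inflammasome assembly, ran from 0.73 to 2.93 (median 1.31) with PBS and from -3.52 to 0.96 (median -0.11) with C26. The groups overlapped at their edges. It was 4.15-fold lower (log2 change -2.05 ± 0.48 SE, adjusted p = 0.000625). The lowest C26 library, replicate 5, held about 2 estimated counts of Gbp5. Over the 16 fits that left out a library, the Gbp5 change ran from -2.27 to -1.63 and was called in 16. Gbp7 ran from 2.62 to 3.46 (median 3.16) and from 0.67 to 2.67 (median 2.04) in the same order of groups, with the highest C26 library just inside the PBS range (log2 change -1.33 ± 0.36 SE, adjusted p = 0.00314).

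The other called GTPases changed less. Gbp4 fell by 1.06 (adjusted p = 0.0409), Gbp9 by 0.91 (adjusted p = 0.0304) and Igtp, an immunity-related GTPase, by 0.70 (adjusted p = 0.0261). Irgm2 (-0.64) and Iigp1 (-1.24) did not pass, with adjusted p = 0.0971 and 0.0706. Irgm1, a regulator of the immunity-related GTPases, was the 1 GTPase with a change above 0. It ran from 3.25 to 3.89 (median 3.33) with PBS and 3.36 to 4.16 (median 3.64) with C26 (log2 change 0.26 ± 0.15 SE, adjusted p = 0.204), and these ranges overlapped. The count of 6 fell to 3 without PBS replicate 2 or without C26 replicate 3, 5 or 7. Gbp4 was not called without PBS replicate 1, 2, 4 or 7, or C26 replicate 1, 3, 5, 7 or 8, Gbp9 was not called without PBS replicate 1, 2 or 7, or C26 replicate 3, 5 or 7, and Igtp was not called without PBS replicate 2 or 4, or C26 replicate 3, 5 or 7, with adjusted p of at most 0.138, 0.0853 and 0.128 in any fit run. Gbp4 and Igtp were also not called once the libraries of high GC slope were left out, nor Igtp with quality weights.

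Averaged over the 11 GTPases, each library's difference from the mean of the PBS libraries of its sex ran from -0.44 to 0.74 (median 0.01) in male PBS and from -1.90 to -0.27 (median -0.79) in male C26, so that 8 of 8 C26 males were below the PBS mean. The same average over the 16 type I effectors ran from -0.53 to 0.11 (median -0.24) in male C26. Within each C26 male the GTPase average was the lower of the 2, by between 0.02 and 1.41. In male PBS the GTPase minus effector difference ran from -0.55 to 0.72. It was below 0 in 7 of 8 5-fluorouracil, 6 of 6 paclitaxel and 6 of 8 cisplatin males.

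Among the type I regulators, Trim25 and Sting1 rose in C26 males. Trim25, a ubiquitin ligase that activates the RNA sensor RIG-I, ran from 3.91 to 4.78 (median 4.42) with PBS and 4.45 to 5.56 (median 5.10) with C26 (log2 change 0.68 ± 0.15 SE, adjusted p = 0.000318). Sting1, the adaptor of cytosolic DNA sensing, ran from 1.13 to 2.20 (median 1.57) and 1.58 to 2.82 (median 2.44), with a log2 change of 0.79 ± 0.23 (SE, adjusted p = 0.00655). Both pairs of ranges overlapped. Usp18, which removes ISG15 and dampens the type I receptor, had a change of -0.71 that just missed the threshold (adjusted p = 0.0556), and Eif2ak2, the kinase PKR, had -0.61 (adjusted p = 0.0955). The median of the 9 regulators was -0.20.

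Of the 16 type I effectors, Ifitm2 and Ifitm3 rose and Ifit2, Ifit3 and Xaf1 fell, with a set median of -0.24. Ifitm2 and Ifitm3 encode membrane proteins that block viral entry. Ifitm3 ran from 3.94 to 4.98 (median 4.48) with PBS and from 5.01 to 5.79 (median 5.25) with C26, every C26 library above every PBS library (log2 change 0.77 ± 0.19 SE, adjusted p = 0.00112). Ifitm2 ran from 4.42 to 4.93 (median 4.74) and from 5.24 to 5.87 (median 5.45), again without overlap (log2 change 0.79 ± 0.16 SE, adjusted p = 6.17e-05). The 2 genes are close copies, and reads shared between them may have been split by the authors' counting, so their separate sizes are uncertain.

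Xaf1, a pro-apoptotic interferon target, moved the other way. It ran from 1.52 to 2.09 (median 1.77) with PBS and from 0.31 to 1.51 (median 0.85) with C26, and every C26 library was lower (log2 change -0.88 ± 0.24 SE, adjusted p = 0.00408). Ifit3, a partner of IFIT1 in binding viral RNA, ran from 0.26 to 0.90 (median 0.75) and -1.83 to 0.73 (median -0.59), with a log2 change of -1.28 ± 0.45 (SE, adjusted p = 0.0251), the groups overlapping. Ifit3 also has a close copy, and its call was lost without C26 replicate 3 or 5 (adjusted p of at most 0.0739 in any fit). Ifit2 fell by 0.94 (adjusted p = 0.0101).

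The genes that load peptides on class I MHC did not follow the GTPases in a way that passed the test. Tap1, a subunit of the peptide transporter, ran from 1.06 to 3.17 (median 1.87) with PBS and 0.66 to 2.03 (median 1.56) with C26 (log2 change -0.52 ± 0.25 SE, adjusted p = 0.119). Tap2, its partner, ran from 3.17 to 4.27 (median 3.39) and 3.18 to 3.81 (median 3.42), with a log2 change of -0.03 ± 0.15 (SE, adjusted p = 0.917), and Tapbp, which tethers the transporter to MHC, from 5.06 to 5.49 (median 5.16) and 5.12 to 5.55 (median 5.20), with a log2 change of 0.05 ± 0.09 (SE, adjusted p = 0.702). All 3 pairs of ranges overlapped. Irf1, the factor that relays interferon-gamma to its late targets, ran from 2.88 to 3.98 (median 3.23) and 2.20 to 3.55 (median 2.99), with a log2 change of -0.46 ± 0.18 (SE, adjusted p = 0.0508). Irf8, the factor of myeloid cells, ran from 2.34 to 3.19 (median 2.73) and 2.14 to 3.15 (median 2.70), with a log2 change of -0.05 ± 0.20 (SE, adjusted p = 0.894). The antigen transport median was -0.05.

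In females the tumour comparison held 4 members called higher and 0 lower, against 4.14% and 2.56% of all genes. The 4 were Ifitm2, Ifitm3, Sting1 and Zbp1, all type I genes. Of the 11 GTPases 0 were called, 1 had an unadjusted p under 0.05 in limma, and their median was -0.17 beside -0.01 over all genes. Of the antigen transport genes 0 were called and 0 had an unadjusted p under 0.05. Over all 42, 25 changes were above 0 and 17 below.

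Ifitm3 ran from 3.60 to 4.94 (median 4.64) in female PBS and from 5.29 to 5.89 (median 5.70) in female C26 libraries, a 2.18-fold difference (log2 change 1.12 ± 0.20 SE, adjusted p = 8.5e-05). Ifitm2 ran from 4.31 to 5.13 (median 4.80) and 5.21 to 6.13 (median 5.66), with a log2 change of 0.92 ± 0.17 (SE, adjusted p = 9.49e-05). For both genes every C26 library was above every PBS library, as in males. Sting1 ran from 0.45 to 1.82 (median 1.21) and 1.42 to 3.25 (median 2.50), with overlap (log2 change 1.23 ± 0.25 SE, adjusted p = 0.000478).

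Zbp1, a sensor of Z-form nucleic acid that can trigger necroptosis, ran from -3.64 to -0.18 (median -2.67) and -1.74 to 0.39 (median -0.74), with a log2 change of 1.64 ± 0.45 (SE, adjusted p = 0.0154). These ranges overlapped, and Zbp1 stood at 1 to 56 estimated counts per library, so its levels are imprecise. Its call was lost without PBS replicate 4 and when only the 2 groups were fitted (adjusted p of at most 0.0702). Gbp3 ran from 0.45 to 2.44 (median 1.67) with PBS and -0.38 to 1.42 (median 0.32) with C26, and its change did not pass (log2 change -1.07 ± 0.41 SE, adjusted p = 0.114). The GTPase average ran from -0.80 to 0.58 (median 0.21) in female PBS and -0.71 to 0.17 (median 0.00) in female C26, with wide overlap. Within each library, GTPase minus effector average ran from -0.46 to -0.09 in female C26, below 0 in 7 of 7, as in C26 males. In female PBS it ran from -0.35 to 0.47, below 0 in 3 of 7.

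**Figure D2:**
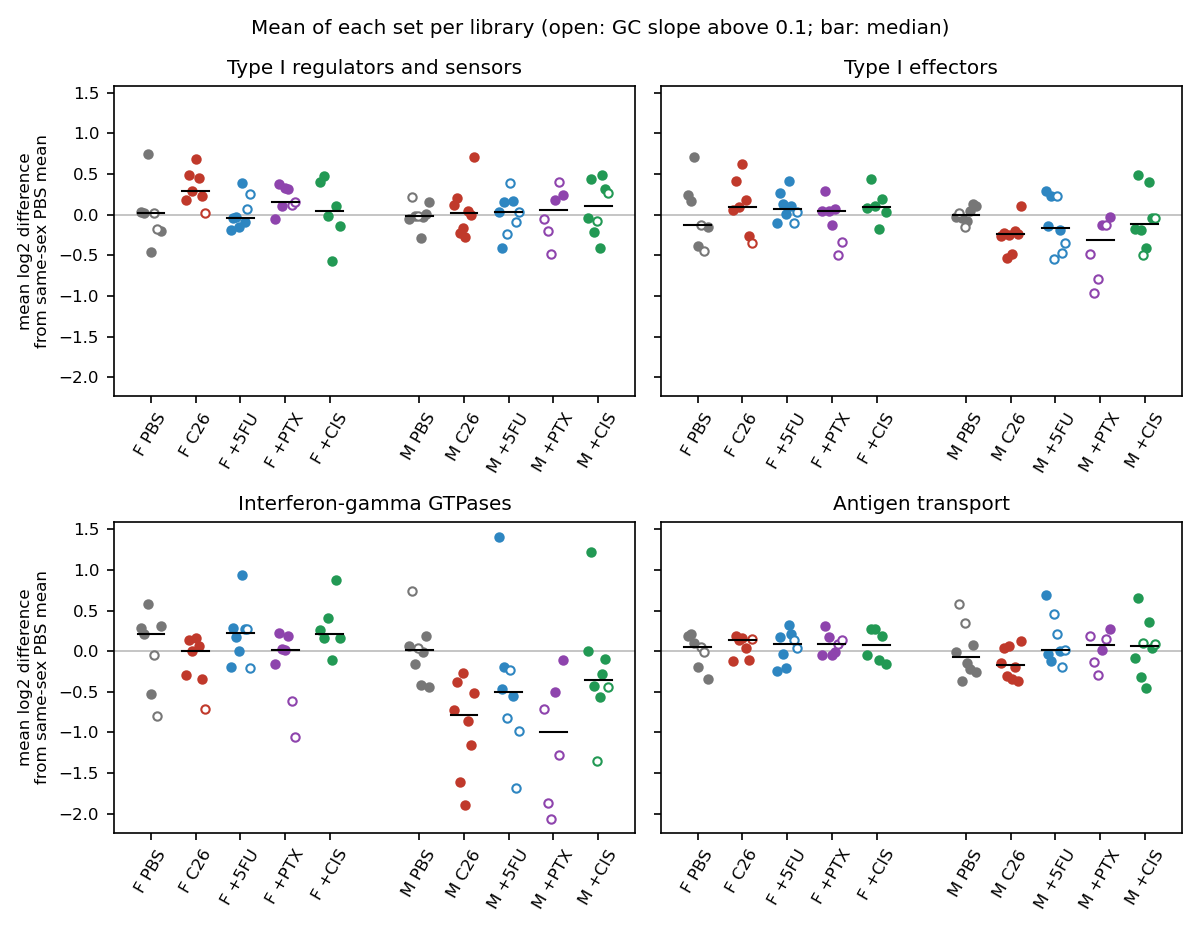
Mean log2 difference from the PBS mean of the same sex (vertical axis) over the members of each of 4 role sets, 1 point per library, by group (horizontal axis, F female, M male). Open points are libraries with a GC slope above 0.1 and bars are group medians. In male C26 the GTPase points lie between -1.90 and -0.27, while the effector points lie between -0.53 and 0.11.

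Whether the sexes differed was tested as the male change minus the female change. For C26 against PBS 0 of 42 members passed in limma, 4 had an unadjusted p under 0.05, and 0.0361% of all genes were called. The 4 were Gbp7 (-1.42, unadjusted p = 0.00858, adjusted p = 0.361), Gbp5 (-1.77, unadjusted p = 0.0134, adjusted p = 0.429), Xaf1 (-0.80, adjusted p = 0.529) and Irf1 (-0.56, adjusted p = 0.575). The lower GTPase levels of C26 males were thus not shown to differ from the female change. For the drugs against C26, 0 members passed with any drug and 2, 0 and 1 had an unadjusted p under 0.05 with 5-fluorouracil, paclitaxel and cisplatin, where 0.0%, 0.0% and 0.0% of all genes were called. With quality weights 1 member passed for the C26 difference and 4 for that of paclitaxel.

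Markers of white blood cells moved with the tumour. The 6 neutrophil markers all rose in both sexes (set medians 3.40 in females and 3.44 in males), and their summed level in CPM ran from 0.697 to 3.06 in female PBS, 4.41 to 34.6 in female C26, 1.4 to 11.6 in male PBS and 9.24 to 31.0 in male C26 libraries. Csf3r was above 0 in all libraries, and the other 5 neutrophil markers had an estimated count of 0 in some. Of 10 macrophage markers, 5 rose in females and 7 in males, where 4.14% and 13.1% of all genes were called higher. None of the 10 was called for the sex difference of the C26 change. Their sums were 44.0 to 93.2 and 90.5 to 182 in female PBS and C26, and 41.1 to 72.0 and 65.0 to 177 in male PBS and C26. Siglech, a plasmacytoid dendritic cell marker and 1 of 2 dendritic markers measured, fell by 1.75 in females and 1.67 in males. The other, Cd209a, had 0.43 and 0.61 and did not pass, and the sums of the 2 ran from 0.767 to 1.99 and 0.588 to 2.21 CPM in female PBS and C26 and from 0.734 to 1.17 and 0.601 to 1.08 in male PBS and C26. The T cell and NK cell markers were not analysed here. The part of these cells in the interferon results was not tested.

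The drug groups were each compared with C26 mice given saline, and these comparisons share the C26 libraries with each other and with the tumour comparison above. In males, some of the GTPases that had been lower with C26 were higher with cisplatin or 5-fluorouracil. With cisplatin Gbp3, Gbp4, Gbp5 and Gbp7 rose, with 5-fluorouracil Gbp3 and Gbp5 rose, and with paclitaxel no GTPase rose and Irgm1 fell. In females no GTPase was called with any drug. Sting1 fell with cisplatin and with 5-fluorouracil in both sexes.

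With cisplatin 7 members rose and 3 fell in males, against 7.66% and 8.23% of all genes. The GTPase median was 0.62 beside -0.04 over all genes. Gbp5 ran from -0.66 to 3.43 (median 1.27) with cisplatin, against the C26 range already given, and was 3.75-fold higher (log2 change 1.91 ± 0.48 SE, adjusted p = 0.00306). Gbp3 ran from 0.16 to 3.25 (median 0.86) and was 3.16-fold higher (log2 change 1.66 ± 0.39 SE, adjusted p = 0.00148). Both genes overlapped between the groups. Gbp7 ran from 1.14 to 3.69 (median 3.00), with a log2 change of 1.03 ± 0.36 (SE, adjusted p = 0.0375) and Gbp4 had 1.17 (adjusted p = 0.036).

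Of the type I genes with cisplatin, Usp18 (0.83), Ifit3 (1.24) and Xaf1 (0.67) rose while Sting1, Trim25 and Ifitm2 fell. Xaf1 ran from 0.19 to 2.68 (median 1.57), overlapping C26 (adjusted p = 0.0454). Sting1 ran from 0.44 to 1.83 (median 1.35), with a log2 change of -1.05 ± 0.23 (SE, adjusted p = 0.000692), Trim25 from 4.16 to 5.11 (median 4.40), with a log2 change of -0.55 ± 0.15 (SE, adjusted p = 0.0063) and Ifitm2 from 4.55 to 5.66 (median 4.84), with a log2 change of -0.52 ± 0.16 (SE, adjusted p = 0.015). Each overlapped the C26 range. No antigen transport gene was called (1 with an unadjusted p under 0.05).

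The cisplatin count of 10 members fell to 3 when only the 2 groups were fitted, which kept Gbp3 and Sting1 of those 10. It fell to 5 without C26 replicate 3 or 5 or cisplatin replicate 7 or 8, and to 6 without cisplatin replicate 2, and the GTPases called went from 4 to 2 without any of these. Usp18, Ifit3, Xaf1, Gbp4 and Gbp7 were called in 10, 6, 6, 8 and 8 of the 16 fits that left out 1 library, with adjusted p of at most 0.0996, 0.128, 0.143, 0.15 and 0.115 in any fit.

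With 5-fluorouracil 5 members rose and 1 fell in males, against 11.3% and 12.0% of all genes. These counts are near or below the shares over all genes and are no result about the members as a group. Gbp5 ran from -0.35 to 3.60 (median 0.60) and was 2.86-fold higher than with C26 alone (log2 change 1.52 ± 0.48 SE, adjusted p = 0.0161). Gbp3 ran from -0.75 to 3.32 (median 0.73) and was 2.83-fold higher (log2 change 1.50 ± 0.39 SE, adjusted p = 0.00361). Both ranges overlapped C26, and in both genes replicate 1 was the highest of the 5-fluorouracil libraries, at 3.32 and 3.60. The GTPase median was 0.37 beside -0.03 over all genes. Gbp5 was not called without C26 replicate 5, or 5-fluorouracil replicate 1 (adjusted p of at most 0.0851), nor when only the 2 groups were fitted, and 1 GTPase was called without C26 replicate 5 or 5-fluorouracil replicate 1.

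Tap1 rose with 5-fluorouracil, from the C26 range above to 1.49 to 3.50 (median 1.80), with a log2 change of 0.68 ± 0.25 (SE, adjusted p = 0.0428). Irf1 ran from 2.81 to 4.05 (median 3.38), with a log2 change of 0.49 ± 0.18 (SE, adjusted p = 0.0408). Bst2, or tetherin, which holds budding virus at the cell surface, rose by 0.83 (adjusted p = 0.0214). Sting1 ran from 0.81 to 2.00 (median 1.29) and fell (log2 change -0.98 ± 0.23 SE, adjusted p = 0.0015). The ranges of Tap1, Irf1 and Sting1 overlapped those of C26. Tap1, Irf1 and Bst2 were not called without the libraries of high GC slope or with that slope in the model and in 8, 7 and 15 of 16 fits that left out 1 library they were (adjusted p of at most 0.137, 0.145 and 0.14). The count of 6 members was 3 without C26 replicate 5, without 5-fluorouracil replicate 4 or with only the 2 groups fitted, and 10 without 5-fluorouracil replicate 2.

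With paclitaxel 2 members rose and 3 fell in males, against 13.5% and 18.5% of all genes. Both are below the shares over all genes and are no result about the members as a group. The count of called members was 0 without the libraries of high GC slope, which left 2 paclitaxel males. It was also 0 with the slope in the model, and none of the 5 calls was kept in either fit. It was 2 or 3 without C26 replicate 1, 6 or 8 or without paclitaxel replicate 1, 2, 3 or 5, and 9 without paclitaxel replicate 6. Irgm1 ran from 2.36 to 3.59 (median 3.20), with a log2 change of -0.65 ± 0.16 (SE, adjusted p = 0.00297), Tapbp from 5.33 to 5.87 (median 5.46), with a log2 change of 0.29 ± 0.09 (SE, adjusted p = 0.016) and Irf8 from 2.45 to 3.94 (median 3.22), with a log2 change of 0.54 ± 0.22 (SE, adjusted p = 0.0473). Each overlapped C26. Samd9l, an antiviral translation inhibitor, fell by 1.20 and Irf9 by 0.43. Gbp3 ran from -1.21 to 0.83 (median 0.49), with a log2 change of 0.74 ± 0.42 (SE, adjusted p = 0.163) and Gbp5 from -2.29 to 1.55 (median -0.22), with a log2 change of 0.31 ± 0.51 (SE, adjusted p = 0.665), and neither passed. The GTPase average stayed below the PBS mean in 6 of 6 paclitaxel males (from -2.06 to -0.11), with -0.50 and -0.11 in the 2 libraries of low slope.

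**Figure D3:**
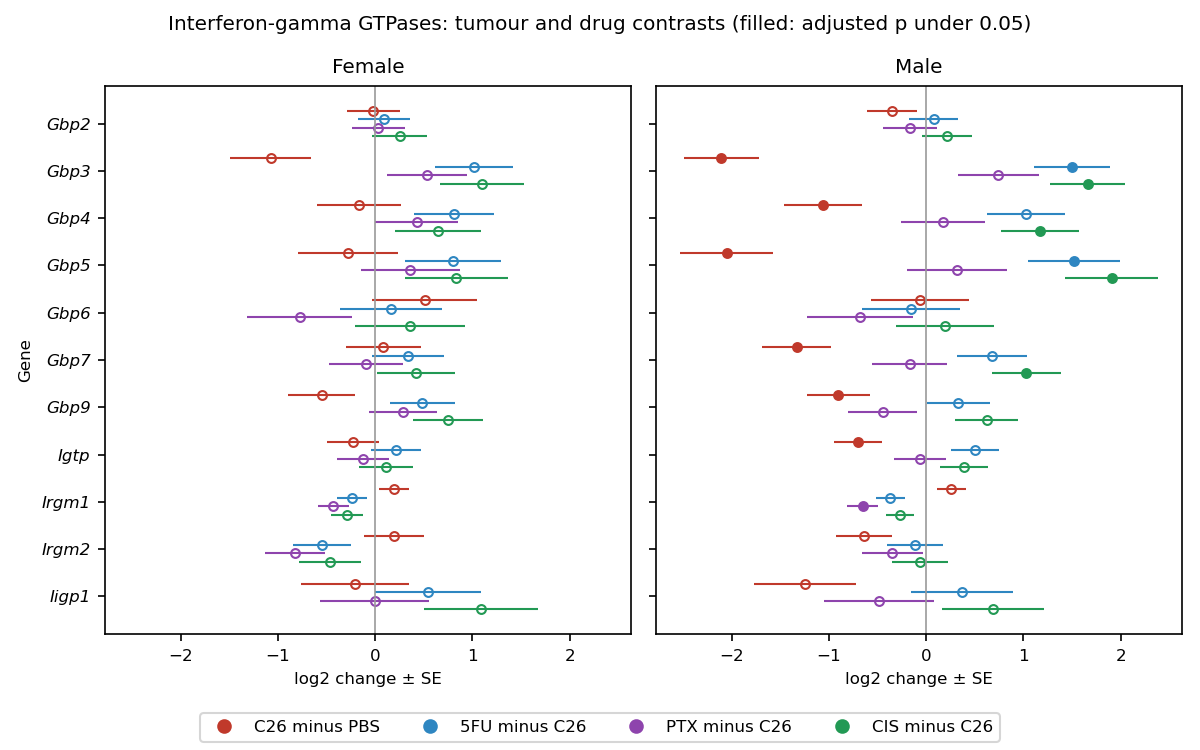
Log2 change (horizontal axis, bars are ± SE) of each of the 11 interferon-gamma GTPases (vertical axis) in C26 against PBS and in each drug group against C26, females on the left and males on the right. Filled points have an adjusted p under 0.05. In males Gbp3 and Gbp5 lie at -2.10 and -2.05 for C26 against PBS and at 1.66 and 1.91 for cisplatin against C26.

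In females 3 members fell with 5-fluorouracil and 0 rose, against 1.2% and 0.152% of all genes, and 3 fell with cisplatin and 0 rose, against 1.31% and 0.346%. They were Sting1, Ifitm2 and Ifitm3 with each drug, the 2 comparisons sharing the C26 libraries. Sting1 ran from 0.32 to 1.75 (median 1.08) with 5-fluorouracil (log2 change -1.39 ± 0.24 SE, adjusted p = 0.000235) and from 0.76 to 1.85 (median 1.13) with cisplatin (log2 change -1.28 ± 0.26 SE, adjusted p = 0.00212). Both ranges overlapped that of C26.

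Ifitm3 ran from 4.55 to 5.20 (median 4.86) with 5-fluorouracil, all below the C26 libraries (log2 change -0.76 ± 0.19 SE, adjusted p = 0.0272), and from 4.53 to 5.41 (median 4.74) with cisplatin (log2 change -0.78 ± 0.21 SE, adjusted p = 0.0363). Ifitm2 ran from 4.66 to 5.30 (median 5.02), with a log2 change of -0.70 ± 0.16 (SE, adjusted p = 0.0106) and from 4.44 to 5.38 (median 4.84), with a log2 change of -0.82 ± 0.17 (SE, adjusted p = 0.0036), both with overlap. The Ifitm3 calls were the least firm. They were lost with 5-fluorouracil without C26 replicate 2, 3, 5, 6 or 7, or 5-fluorouracil replicate 3, 4 or 5, and with cisplatin without C26 replicate 2, 3, 5, 6 or 7, or cisplatin replicate 1, 3, 4, 5 or 6 (adjusted p of at most 0.0724 and 0.106). Ifitm2 with 5-fluorouracil was lost without C26 replicate 6 (adjusted p of at most 0.0606), where only Sting1 remained.

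With paclitaxel 0 female members were called in limma (5 with an unadjusted p under 0.05), where 0.0% of all genes were called higher and 0.0% lower and 845 genes had an unadjusted p under 0.05. Sting1 ran from 1.66 to 2.60 (median 2.05), Ifitm2 from 5.11 to 5.77 (median 5.46) and Ifitm3 from 5.08 to 5.89 (median 5.52), inside or near the C26 ranges. The female GTPases had 9 of 11 changes above 0 with 5-fluorouracil (median 0.34) and 9 of 11 with cisplatin (median 0.42), with 0 called and 1 and 2 having an unadjusted p under 0.05.

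**Figure D4:**
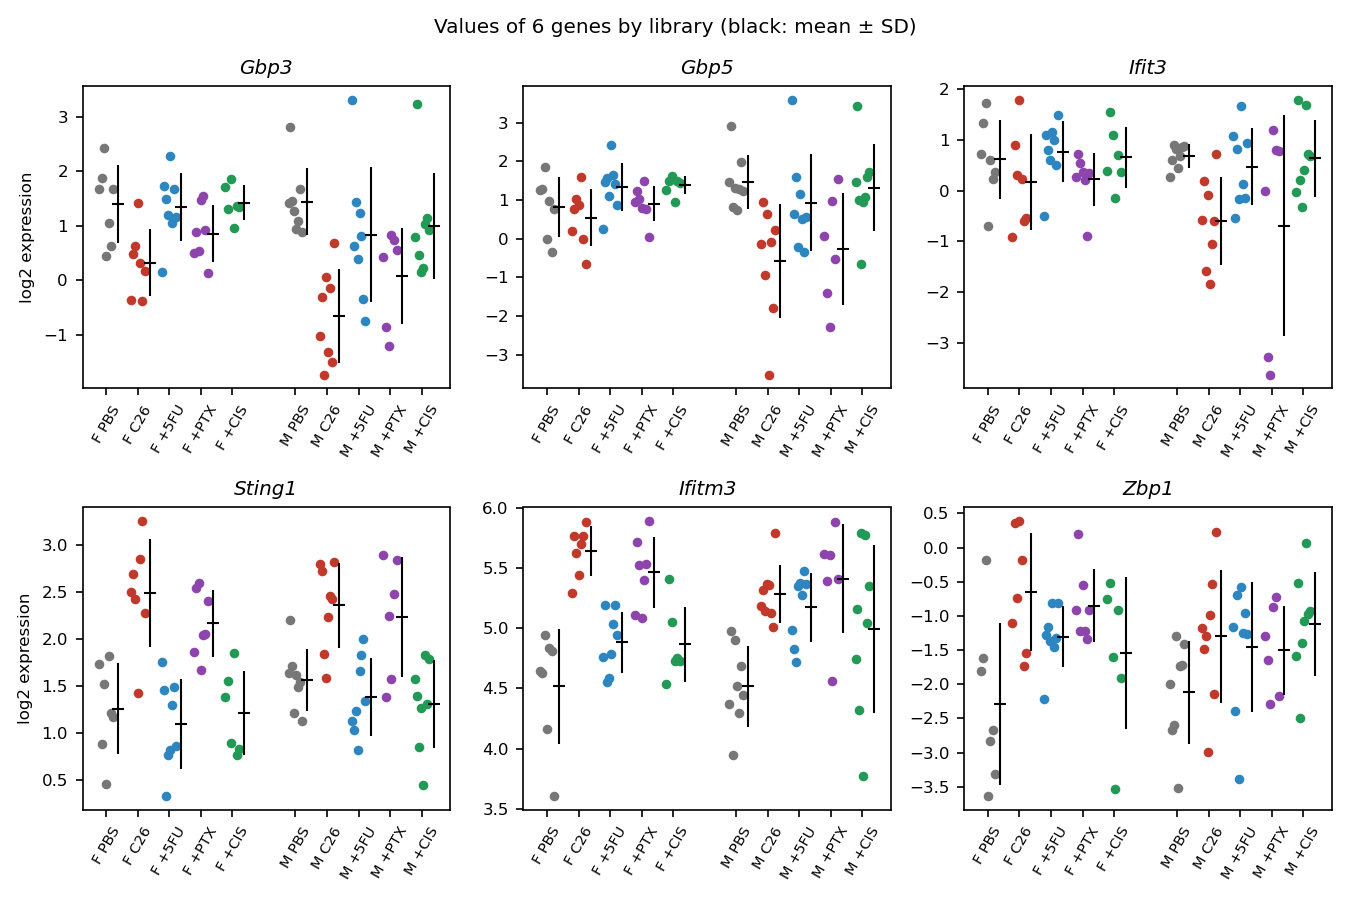
Log2 level (vertical axis) of Gbp3, Gbp5, Ifit3, Sting1, Ifitm3 and Zbp1 in each library, by group (horizontal axis, F female, M male), with the mean ± SD in black. For Ifitm3 the C26 libraries of each sex lie above the PBS libraries of that sex, from 5.29 to 5.89 against 3.60 to 4.94 in females.

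Markers moved with the drugs as well. In males the 6 neutrophil markers fell with 5-fluorouracil (median -2.73) and with cisplatin (median -2.78), and 0 were called with paclitaxel (median -0.67). Of all genes 12.0%, 8.23% and 18.5% were called lower with 5-fluorouracil, cisplatin and paclitaxel. Their sums ran from 1.37 to 15.8, 1.01 to 11.1 and 7.26 to 29.4 CPM in these 3 groups. The macrophage sums ran from 55.2 to 132, 60.3 to 124 and 85.9 to 215. In females the neutrophil sums ran from 0.497 to 9.71, 1.15 to 4.58 and 3.81 to 12.0 with 5-fluorouracil, cisplatin and paclitaxel, and the macrophage sums from 35.6 to 101, 59.7 to 107 and 89.7 to 237. Their part in the changes of Sting1, Ifitm2, Ifitm3 and the GTPases was not tested.

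Across every comparison within a sex, 11 members were called in none (Stat2, Irf7, Ifih1, Isg15, Rsad2, Ifi27, Ifi35, Gbp2, Gbp6, Tap2 and B2m), and they include standard readouts of type I interferon. Isg15, a ubiquitin-like modifier, had a change of -0.22 in female and -0.19 in male C26 mice against PBS, and Rsad2, the antiviral enzyme viperin, had 0.50 and -0.32. Irf7, the amplifier of type I interferon production, had -0.05 and -0.33, and B2m, the light chain of class I MHC, had 0.06 and -0.07. None of these 4 had an adjusted p under 0.05 in any comparison of the 5 groups, the smallest being that of Rsad2 (adjusted p = 0.0573).

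Against PBS mice, which the tumour comparison also used, few members were called with cisplatin or 5-fluorouracil and most calls were in paclitaxel males. With cisplatin 0 of 42 were called in either sex in limma (0 with an unadjusted p under 0.05 in females and 4 in males), where 0.0794% and 0.13% of all genes were called higher and lower in females and 0.556% and 0.346% in males. With 5-fluorouracil 0 were called in females (2 with an unadjusted p under 0.05), beside 0.209% and 0.173% of all genes. In males Trim25 (0.49), Ifitm2 (0.53) and Ifitm3 (0.66) rose, beside 2.52% and 2.24%. That male count was 0 without the libraries of high GC slope or with the slope or the mitochondrial share in the model, 0 without PBS replicate 1 or 6 or 5-fluorouracil replicate 4, 5, 7 or 8, and 1 without PBS replicate 3 or 7.

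With paclitaxel, only type I genes were called in females, while type I genes, most GTPases and Tapbp were called in males. In females Ifitm3 (0.95), Ifitm2 (0.66), Sting1 (0.91) and Zbp1 (1.44) rose and 0 fell, beside 2.89% and 1.69% of all genes. The count was 2 without PBS replicate 4 or paclitaxel replicate 2 or 3. The Zbp1 call was kept in 3 of 8 other settings and was lost without PBS replicate 4, 5, 6 or 7, or paclitaxel replicate 1, 2, 3, 4, 5 or 7 (adjusted p of at most 0.155). In males 5 rose and 18 fell, beside 16.9% and 20.6%, with all 11 GTPases below 0 (8 called, median -0.98) and 9 of 16 effectors called lower. Of these 23 calls, 0 were left without the libraries of high GC slope and 1 with the slope in the model. Gbp5 then had a change of 0.01 without those libraries in place of -1.74. Without paclitaxel replicate 2 or 3 the count was 12 and 11, and the GTPases called lower were 5 and 2.

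Compared with each other, the drugs gave 1 called member. Sting1 was higher with paclitaxel than with 5-fluorouracil in females (log2 change 1.07 ± 0.24 SE, adjusted p = 0.0308), where 0.188% of all genes were called. It did not pass once the libraries of high GC slope were left out, when only the 2 groups were fitted, or without 5-fluorouracil replicate 3, 4, 5 or 8 or paclitaxel replicate 2, 3, 5 or 7. In the other 5 pairs 0 members were called in limma, where quality weights gave 23 for cisplatin against paclitaxel in males and 3 in females. In females cisplatin against 5-fluorouracil had 0 with an unadjusted p under 0.05 (0.0% of all genes called) and cisplatin against paclitaxel 4 (0.0217%). In males paclitaxel against 5-fluorouracil had 9 (0.0144%), cisplatin against 5-fluorouracil 1 (0.0%) and cisplatin against paclitaxel 22 (0.0144%). In that last pair 11 of 11 GTPases were above 0 with a median of 0.92, and the missed threshold does not show that the drugs act alike. The count of 0 became 14 without paclitaxel replicate 4, 15 without paclitaxel replicate 6, 21 without cisplatin replicate 4 and 2 without cisplatin replicate 6. The pair was uneven in GC slope, which was above 0.1 in 4 of 6 paclitaxel and 2 of 8 cisplatin males. Paclitaxel replicates 4 and 6 were those of low slope (-0.026 and -0.081), and cisplatin replicate 4 had a slope of 0.532. Among libraries of low slope, the GTPase averages had medians of -0.31 in 2 paclitaxel and -0.19 in 6 cisplatin males.

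Many members also varied together among mice of the same group, and some varied in opposite directions. After group means were removed, the median Pearson correlation over 73 libraries between pairs of GTPases was 0.663 (Spearman 0.613, 55 pairs, from -0.018 to 0.861) and 0.549 over the 54 libraries of low GC slope. It was 0.258 among type I effectors (120 pairs, from -0.692 to 0.862) and 0.397 among antigen transport genes (6 pairs, from -0.232 to 0.694). It was 0.134 among regulators (36 pairs, from -0.38 to 0.757) and -0.001 over all pairs of genes in the table. Between GTPases and antigen transport it was 0.335, and between GTPases and effectors 0.34. Over the 54 libraries of low slope, antigen transport had 0.552, level with the GTPases, effectors 0.337 and regulators 0.176, and GTPases with antigen transport had 0.487.

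The closest pairs were Parp9 and Dtx3l (0.862), which form a complex and are transcribed from a shared promoter region, Gbp5 and Gbp9 (0.861) and Gbp4 and Gbp9 (0.85). Gbp5 and Iigp1, of the 2 GTPase families, had 0.819. The lowest pairs were Bst2 and Samd9l (-0.692) and Ifi35 and Samd9l (-0.689). Ifitm2, Ifi35, Bst2 and Ifitm3 had medians of -0.316, -0.222, -0.162 and -0.058 with the other effectors. Trim25 had a median of -0.372 with the GTPases, -0.339 with the effectors and -0.044 with antigen transport. These are descriptions over libraries that share depth and GC slope within a library, and nearby or similar genes may share reads.

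**Figure D5:**
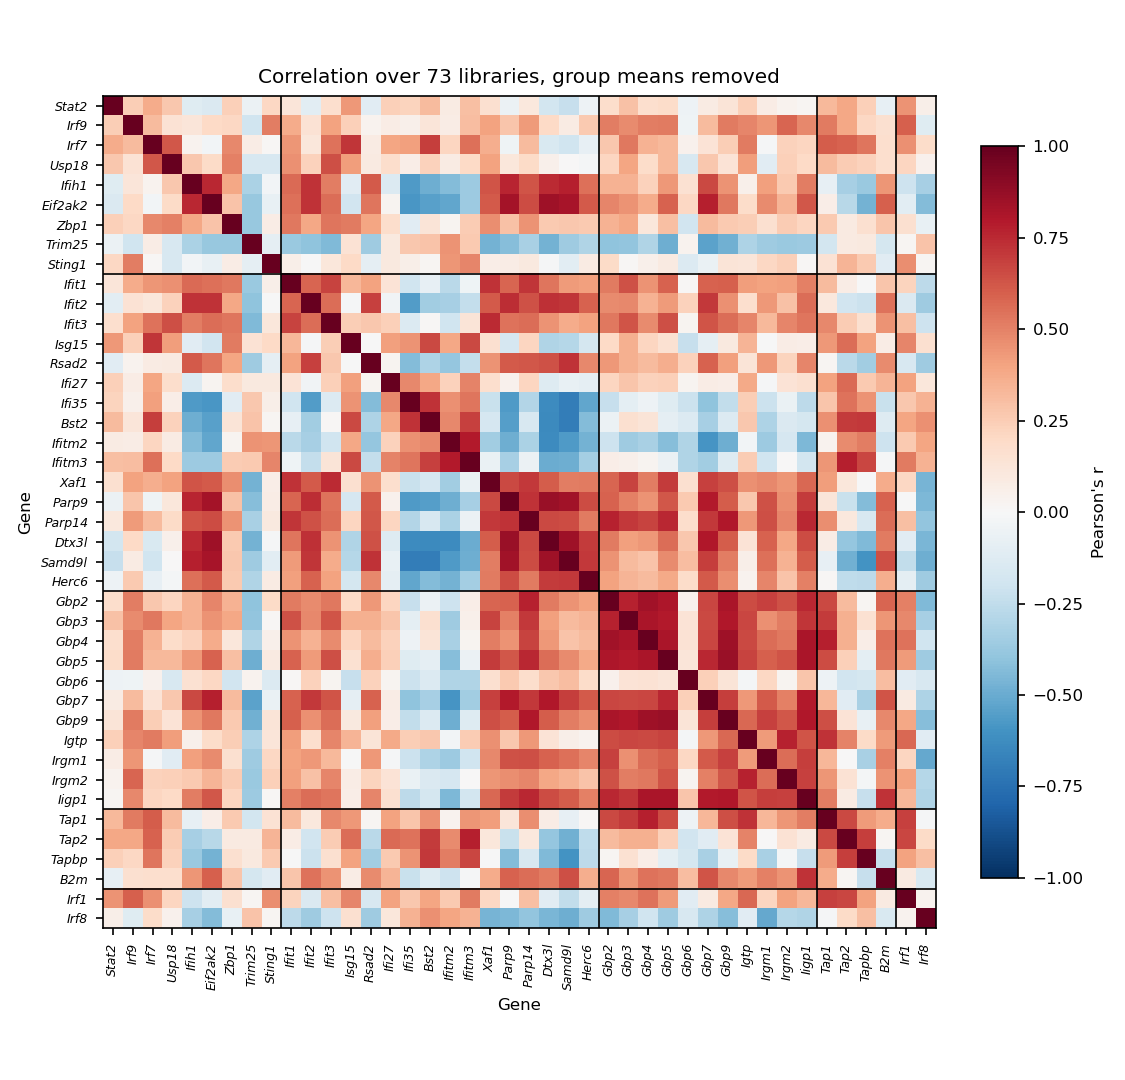
Pearson correlation of each pair of the 42 members over 73 libraries after removal of group means (both axes list the members by role, colour gives the correlation from -1 to 1). The GTPase block has a median of 0.663 and the antigen transport block 0.397.

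Other genes of the pathway were read from a list of 46, of which 40 were measured. Ifnb1, Ifng, Mx1, Gbp8, Cxcl9 and Cxcl10 were not analysed here, so neither ligand was measured. In male C26 against PBS 3 of 40 rose and 8 fell, with a median of -0.26, where 13.1% of all genes were called higher and 13.0% lower. The receptor chain Ifngr2 (-0.58) and the kinases Jak1 (-0.29) and Jak2 (-0.58) fell, as did the immunoproteasome subunit Psmb8 (-0.60), its activator Psme1 (-0.67) and the interferon-induced Ifi44 (-1.21), Cmpk2 (-1.40) and Tgtp2 (-1.36). Tgtp2 has a near-identical copy, and its value is uncertain. The chaperones Pdia3 (0.47) and Calr (0.42) and the exonuclease Isg20 (1.00) rose.

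With 5-fluorouracil in males 6 of 40 rose and 7 fell, where 11.3% of all genes were called higher and 12.0% lower. The immunoproteasome subunits Psmb8 (0.73), Psmb9 (1.08) and Psmb10 (0.71) rose together with Psme1 (0.62), Ifngr2 (0.34) and Cmpk2 (1.14), while Pdia3, Calr, Canx, Erap1, Isg20, Ifnar1 and the phosphatase Ptpn2 fell by 0.33 to 1.02. With cisplatin in males 3 of 40 rose (Ifngr2 0.49, Psme1 0.56 and Cmpk2 1.23) and 4 fell, beside 7.66% and 8.23% of all genes. With paclitaxel in males 3 rose and 5 fell, beside 13.5% and 18.5%. These cisplatin and paclitaxel counts are no result about the pathway, being near or below the shares over all genes. In C26 females Ptpn6 (1.01), a phosphatase of blood cells, Calr (0.23) and Gbp10 (1.04), a close copy of Gbp6, rose and 0 fell. Of all genes, 4.14% were called higher and 2.56% lower in that comparison. Ptpn6 fell with 5-fluorouracil (-1.13) and cisplatin (-1.21) in females.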

How the data were processed

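Gastrocnemius RNA of 73 mice in 10 groups was read from the authors' deposited table of log2 expression values, 1 per gene and library. Per the submitters' processing notes, the tools were limma, edgeR, Salmon, fastp, MultiQC and FastQC and the genome mm39 (GRCm39). No version or role of a tool is stated, and how low genes were filtered is not given in the sources used here. Judged from the values, each deposited log2 value is an estimated count with 0.5 added, over a scaled library size, and 85.0 to 90.7% of a library's values gave a count within 0.02 of a whole number. Libraries differed in depth from 11.4 to 40.5 M estimated counts, so low genes such as Zbp1 are measured least precisely.

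Of 75 labelled samples, female PBS replicate 8 was not analysed here, and 1 female library whose title and treatment label disagree was left out. All libraries carry 1 batch label. The labels do not say more about shared litters or days.

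All 13856 genes were fitted together with limma 3.58.1 in R 4.3.3, with a mean for each group, trended empirical Bayes variance and Benjamini-Hochberg adjustment per comparison, two-sided. The fit was tested on simulated data. Members with values by library were the 3 of each role set with the smallest adjusted p in the comparisons of C26 with PBS or of a drug with C26. Gbp7 and Ifit3 were added after their values were seen. The members and lists were chosen with earlier results of these data known. Alternatives were quantile scaling, a mean log2 of at least 1, log2(value + 1), quality weights, only the compared groups, the replicate number as a block, covariates for GC slope (the slope of values on transcript GC content over 10637 genes) or for the mitochondrial share (13 genes), omission of the 19 libraries with a GC slope above 0.1, and omission of each library in turn. Sequences came from RefSeq promoter tables of GRCm38.p6, an older build than that of the notes, so they were matched by gene symbol only.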

Additional observations from a re-analysis of the deposited data

Results flagged for a closer look

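Of 190 tests for a library far from the rest of its group, 10 were positive. About 5% of such tests are positive by chance, and the number found is near that share. Each compares the gap to the nearest library with the range of the group (Dixon's test).

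In females, PBS replicate 3 had a mean of 0.75 over the type I regulators, where the next library had 0.03. C26 replicate 7 had the lowest Irgm1 (2.89, next 3.54) and the highest Tapbp (5.79, next 5.46). 5-fluorouracil replicate 1 had the lowest Zbp1 (-2.22, next -1.45), and 5-fluorouracil replicate 5 had the highest GTPase average (0.94, next 0.29).

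In males, PBS replicate 2 had the highest Gbp3 (2.82, next 1.67) and the highest Irgm1 (3.89, next 3.51). Without it the male C26 comparison called 3 GTPases lower in place of 6. Cisplatin replicate 2 had the highest Gbp3 of its group (3.25, next 1.15), and without it 2 GTPases were called higher than with C26 in place of 4. C26 replicate 8 had the highest Ifitm3 (5.79, next 5.36), and paclitaxel replicate 4 the lowest (4.56, next 5.39).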

How the results depend on the processing

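With C26 against PBS, the counts of called members stayed within 1.5 times of 13 in males (11 to 18 over the settings) and of 4 in females (3 to 6). The drug comparisons moved more. With quality weights the counts were 5 (female 5-fluorouracil against C26), 8 (female cisplatin against C26), 9 (male paclitaxel against C26), 1 (female cisplatin against PBS), 8 (male 5-fluorouracil against PBS), 3 (female paclitaxel against 5-fluorouracil), 3 (female cisplatin against paclitaxel), 23 (male cisplatin against paclitaxel), and 1 and 4 for the sex difference of the C26 and paclitaxel effects. With the GC slope as covariate they were 10, 0 and 16 (male 5-fluorouracil, paclitaxel and cisplatin against C26) and 0 and 1 (male 5-fluorouracil and paclitaxel against PBS). Without the libraries of high GC slope they were 5 (female cisplatin against C26), 0 (male paclitaxel against C26), 0 and 0 (male 5-fluorouracil and paclitaxel against PBS) and 0 (female paclitaxel against 5-fluorouracil). With the mitochondrial share they were 11 and 1 (male 5-fluorouracil and paclitaxel against C26) and 0, 2 and 1 (male 5-fluorouracil, paclitaxel and cisplatin against PBS). With only the compared groups they were 5 (female cisplatin), 3, 2 and 3 (male 5-fluorouracil, paclitaxel and cisplatin against C26), 1 (male 5-fluorouracil against PBS) and 0 (female paclitaxel against 5-fluorouracil). With genes of a mean log2 of at least 1, male cisplatin against C26 gave 6. That filter leaves out Gbp3, Gbp5, Usp18 and Ifit3, which the main fit called in this comparison. Of GTPases, male paclitaxel against PBS gave 0 lower with either covariate or without the high-slope libraries. Male cisplatin against C26 gave 2 higher with the mean filter and 1 with the compared groups only, and male 5-fluorouracil against C26 gave 1 and 1 in these and 4 with either covariate and without the high-slope libraries. Under the mean filter, 58 calls against C26 or PBS were kept and 0 were lost among the members still tested. The cause of the other shifts was not tested.

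Omitting 1 library at a time gave 4 to 5 (female C26 against PBS), 1 to 4, 0 to 0 and 2 to 3 (female 5-fluorouracil, paclitaxel and cisplatin against C26), 9 to 16 (male C26 against PBS), 3 to 10, 2 to 9 and 5 to 12 (male drugs against C26, same order), 2 to 4 (female paclitaxel against PBS), 0 to 4 and 11 to 27 (male 5-fluorouracil and paclitaxel against PBS), 0 to 1 (female paclitaxel against 5-fluorouracil) and 0 to 21 (male cisplatin against paclitaxel), and 0 in each other comparison. GTPases gave 3 to 7 lower (male C26 against PBS), 2 to 10 lower (male paclitaxel against PBS), and 2 to 4 and 1 to 3 higher (male cisplatin and 5-fluorouracil against C26).

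Whether the replicate numbers of the titles pair the samples was not settled. Of 57 same-numbered pairs, 28 deviated together with a correlation above 0.1 (range -0.305 to 0.564). Pairs of unlike numbers were not compared. A replicate block gave 15 called members in male and 4 in female C26 against PBS, and 3 in place of 0 in male cisplatin against paclitaxel.

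Signs turned in paclitaxel males. With the GC slope as covariate the changes were 0.25 for Samd9l against C26, and 0.0457 for Dtx3l and 0.0554 for Samd9l against PBS. Without the high-slope libraries they were 0.21 for Samd9l and -0.07 for Irf8 against C26, and 0.31 for Ifit3, 0.15 for Dtx3l, 0.0117 for Gbp5 and 0.14 for Irgm1 against PBS. Depth limits Zbp1, Ifit3, Gbp5 and Gbp6 most, which reached 1 to 2 estimated counts in their lowest library.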

Other observations

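The highest GTPase averages of the 73 libraries belonged to male 5-fluorouracil replicate 1 (1.41 above the mean of the PBS libraries of its sex) and male cisplatin replicate 2 (1.22). The antigen transport averages of these 2 libraries were 0.69 and 0.66, and their type I effector averages 0.29 and 0.49, so the GTPases stood 1.12 and 0.73 above the effectors. Their GC slopes were low (-0.126 and -0.127). Female 5-fluorouracil replicate 5 (0.94) and female cisplatin replicate 5 (0.88) came next, followed by male PBS replicate 2 (0.74), a mouse without tumour cells. The lowest averages belonged to male paclitaxel replicate 3 (-2.06, GC slope 0.327) and male C26 replicate 5 (-1.90, GC slope -0.061).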
